A study of Mus musculus with 2 samples.

Results

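Plasmacytoid dendritic cells made up 389 of the 18786 barcodes kept from 2 single-cell RNA libraries of mouse liver tumours, 88 in the Crtc2+/+ library and 301 in the Crtc2-/- library. They were chosen by raw counts of unique molecular identifiers (UMIs, each standing for 1 captured RNA molecule). A member had at least 2 UMIs of Siglech, at least 1 UMI of Ccr9, Klk1, Cox6a2 or Pacsin1 together, none of the T cell genes Cd3d, Cd3e and Cd3g, and at most 9 UMIs of the macrophage genes C1qa, C1qb and C1qc together. The levels of those genes are therefore given as description only. Mice of both genotypes received 25 mg/kg of the liver carcinogen diethylnitrosamine (DEN) into the peritoneum at 2 weeks of age and ate a NASH diet, which models fatty liver inflammation, from week 8 to week 26. Crtc2+/+ mice carry the intact gene and Crtc2-/- mice are labelled as lacking it; how the gene was disrupted is not described in the labels. Each genotype has 1 library of dissociated tumours, made from a number of animals that the labels do not state. No comparison between genotypes has a replicate, and the intervals below cover counting error only.

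Plasmacytoid dendritic cells are immune cells specialised in making type I interferon. They sense viral and self nucleic acids in endosomes through the toll-like receptors TLR7 and TLR9, pass the signal through MYD88 to the factor IRF7, and carry a large secretory apparatus. Their identity depends on the factor TCF4, and in tumours they are known as a cell that can make little interferon and can restrain T cells. CRTC2 is a coactivator of the transcription factor CREB, which switches on genes in response to cyclic AMP. The study's title links CRTC2 to the DNA repair kinase DNA-PK.

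The members' transcripts matched the label in both libraries. Tcf4 had a UMI in 100% of the members of each library, and its level was 3753 UMIs per 1000000 (CPM) in Crtc2+/+ and 4765 in Crtc2-/- members, against 342 and 330 CPM over all other kept barcodes. Runx2, a factor that plasmacytoid dendritic cells use to leave the bone marrow, stood at 1777 and 2158 CPM, against 118 and 166 elsewhere. Members had a median of 18 Siglech UMIs in Crtc2+/+ and 19 in Crtc2-/-. A few lay near the threshold: 5 Crtc2+/+ and 11 Crtc2-/- members had 2 or 3 Siglech UMIs, and 13 further barcodes in each library met the other conditions with 1 Siglech UMI. Tcf4 reached 1251 and 3348 CPM in the members with 2 or 3 Siglech UMIs, and 923 and 1060 CPM in the barcodes with 1.

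The members' depth was alike between libraries, with a median of 8892 UMIs and 3185 genes in Crtc2+/+ and 9333 UMIs and 3299 genes in Crtc2-/-. Together they held 838529 and 3040444 UMIs, so that 3 counts, taken as the detection floor, correspond to 3.58 and 0.987 CPM. The libraries shared 29 barcode sequences, which belonged to 3 Crtc2-/- members and to 0 Crtc2+/+ members. Of 8 T cell markers, the summed level was 34.6 and 42.1 CPM in members, and the 6 Kupffer cell markers summed to 0 and 8.55 CPM. Macrophage markers summed to 587 and 622 CPM and monocyte markers to 374 and 227 CPM. Markers of type 2 conventional dendritic cells summed to 495 and 680 CPM, or 178% and 140% of their level in the other barcodes, and endothelial markers to 261 and 439 CPM, or 105% and 22.4%. Markers of some other types came from single barcodes. In Crtc2-/-, 1 member held 4088 of the 4154 plasma cell marker UMIs, 1 held 1293 of 1332 erythroid UMIs, and 1 held 2463 of 3031 hepatocyte UMIs. At least 20 UMIs of the markers of 1 other type were present in 5 Crtc2+/+ members (5.68%) and 21 Crtc2-/- members (6.98%), called mixed barcodes below. Transitional dendritic cell markers were not used for this call. They summed to 526 and 282 CPM, or 244 and 165 CPM without the mixed barcodes, and reached 20 UMIs in 3 and 4 members. Without the mixed barcodes the monocyte markers summed to 88.3 and 87.8 CPM. The hepatocyte markers then summed to 74.9 and 101 CPM in place of 70.4 and 997, and the plasma cell markers to 4.01 and 19.7 CPM. Values without them stand beside several of the results below.

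Promoters of 5 interferon-related genes are shown because these genes differ in ratio and in the motif that the group is known for. Each line is the 160 bases before the gene's start, 5′ to 3′, from RefSeq (GRCm38.p6), and capitals mark matches, on either strand, to a pair of GAAA blocks with 2 bases of any kind between them, the core of the element bound by interferon-activated complexes. Overlapping matches run together.
Isg15: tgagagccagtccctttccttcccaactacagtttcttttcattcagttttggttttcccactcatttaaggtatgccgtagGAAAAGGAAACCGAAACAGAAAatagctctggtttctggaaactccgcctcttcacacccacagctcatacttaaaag
Phf11b: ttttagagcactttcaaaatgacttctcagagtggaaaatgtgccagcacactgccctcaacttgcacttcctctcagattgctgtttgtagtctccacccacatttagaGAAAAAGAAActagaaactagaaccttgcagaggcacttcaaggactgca
Ifit3: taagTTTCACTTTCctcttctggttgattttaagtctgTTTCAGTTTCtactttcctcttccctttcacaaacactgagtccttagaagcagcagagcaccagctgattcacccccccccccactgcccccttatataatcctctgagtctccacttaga
Bst2: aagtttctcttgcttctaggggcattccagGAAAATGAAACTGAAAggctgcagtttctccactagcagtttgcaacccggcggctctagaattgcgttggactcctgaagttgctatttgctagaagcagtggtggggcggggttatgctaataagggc
Irf7: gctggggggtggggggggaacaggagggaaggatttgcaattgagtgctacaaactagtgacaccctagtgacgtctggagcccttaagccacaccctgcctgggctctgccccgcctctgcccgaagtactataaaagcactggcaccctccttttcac
The windows lie on the minus strand at chr4:156200819-156200978 (Isg15), chr14:59341331-59341490 (Phf11b), chr8:71537473-71537632 (Bst2) and chr7:141266425-141266584 (Irf7), and on the plus strand at chr19:34583369-34583528 (Ifit3). Isg15, Phf11b and Ifit3 were at least 2-fold lower in Crtc2-/- members. The value of Ifit3 rests on few UMIs and stayed past 2-fold in 7 of 12 alternative settings. Bst2 has 2 matches and was not lower, and Irf7 has 0 matches in this window and was lower by less than 2-fold. In windows of 300 bases, 250 before and 50 after the start, the motif occurs in 3.44% of all 32851 promoters listed and in 20 of 40 promoters listed for 33 of the type I interferon response genes measured here. The 18 response genes with a match had a median log2 ratio of -0.22 and the 15 without one had -0.45. A match is a description of letters and not a binding site.

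The share of plasmacytoid dendritic cells was higher in the Crtc2-/- tumours. They were 88 of 9612 kept barcodes in Crtc2+/+, or 0.916% (exact 95% binomial interval 0.735 to 1.13%), and 301 of 9174 in Crtc2-/-, or 3.28% (2.93 to 3.67%), a 3.58-fold difference. Much of the Crtc2+/+ library consisted of C1q-rich macrophages. Over barcodes with at most 9 C1q UMIs the shares were 2.02% (1.62 to 2.48%) and 4.14% (3.69 to 4.62%), a 2.05-fold difference. The intervals of the 2 libraries did not overlap over either denominator. The C1q limit of the membership rule itself removed 17 barcodes that met the other conditions in Crtc2+/+ and 7 in Crtc2-/-. Without that limit the shares of all kept barcodes were 1.09% and 3.36%, a 3.07-fold difference. Thinning every barcode to 2000 UMIs before applying the rule gave 0.849% and 3.07%. How much of this comes from more plasmacytoid dendritic cells and how much from fewer macrophages cannot be told apart in shares, and differences between animals or dissociations cannot be told apart from genotype.

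Other dendritic cells and lymphocytes also had higher shares in Crtc2-/-. Type 1 conventional dendritic cells, which cross-present antigen and were taken by Xcr1 and Clec9a, were 0.801% and 2.05% of kept barcodes. Type 2 cells, which prime helper T cells and were taken by Cd209a and Flt3, were 0.801% and 2.06%. There were 114 plasmacytoid cells per 100 type 1 cells in Crtc2+/+ and 160 in Crtc2-/-. Of the cells of these 2 kinds together, 53.3% (45.4 to 61.1%) and 61.6% (57.1 to 65.9%) were plasmacytoid, so the intervals overlapped. B cells were 4.47% and 10.96% of kept barcodes, a 2.45-fold difference, and T cells 19.6% and 27.5%, a 1.41-fold difference. Plasmacytoid cells were 17.0% (13.9 to 20.5%) and 23.05% (20.8 to 25.4%) of themselves and B cells together, and 4.47% (3.60 to 5.48%) and 10.7% (9.55 to 11.9%) of themselves and T cells together, and these intervals did not overlap. The plot of shares by genotype shows the dendritic classes side by side.

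**Figure D1:**
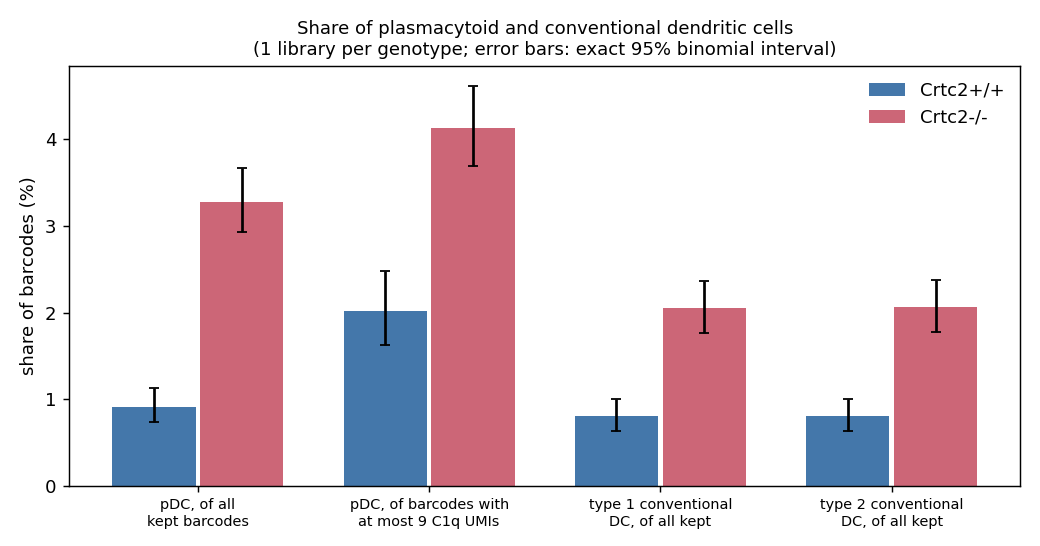
Bars give the share of barcodes (%) for plasmacytoid dendritic cells (pDC) over 2 denominators and for type 1 and type 2 conventional dendritic cells (DC), with 1 library per genotype and exact 95% binomial intervals. The Crtc2-/- bar is the taller of each pair, from 0.916 and 3.28% at the left to 0.801 and 2.06% at the right.

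Crtc2 itself was too sparse in these cells to check the genotype. It had 5 UMIs in Crtc2+/+ members and 18 in Crtc2-/- members, or 5.96 (1.94 to 13.9) and 5.92 (3.51 to 9.36) CPM, a ratio of 0.993 (exact conditional interval 0.355 to 3.42). Over all other kept barcodes the ratio was 0.696 (0.614 to 0.789), from 8.01 to 5.58 CPM. The gene lies on the plus strand of chromosome 3 at 90254163-90264125 (GRCm38). The library reads the 3′ ends of transcripts, so UMIs from outside a deleted part check nothing.

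The other CRTC genes and the kinase named in the title were read next. Crtc3, a close paralog, stood at 47.7 (34.1 to 65.0) CPM in Crtc2+/+ and 79.3 (69.6 to 89.9) CPM in Crtc2-/- members, a ratio of 1.66 (1.19 to 2.38). Its level elsewhere differed less, at 78.6 and 97.8 CPM. Crtc1 had 8 and 60 UMIs, a ratio of 2.07 (0.985 to 5.01). Creb1, the factor that CRTC proteins coactivate, was at 100.2 and 93.1 CPM, and Prkdc, the catalytic subunit of DNA-PK, at 66.8 and 68.4 CPM. Of the 17 measured genes of non-homologous end joining and the DNA damage response, 0 differed by 2-fold and the median log2 ratio was 0.05. The highest of these 17 was Dclre1c, which encodes the end-processing nuclease Artemis, at 204 and 299.6 CPM. Among all 9824 genes with at least 20 UMIs over both libraries, the minimum used for every gene group here, 1.76% were at least 2-fold higher and 0.56% at least 2-fold lower.

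Across the transcriptome the members of the 2 libraries were much alike. Of 3987 genes with at least 50 CPM in a library, 93.7% lay within 1.5-fold, and the median log2 ratio of Crtc2-/- over Crtc2+/+ (10 CPM added to each level, as in all log2 ratios here) was 0.00. At least 2-fold higher were 41 genes (1.03%) and at least 2-fold lower were 26 (0.652%). In 18 of the 41 and 4 of the 26, more than 50% of the UMIs came from 1 cell. Over all other kept barcodes, 38 of the 41 differed in the same direction and 25 were also at least 2-fold higher. Of the 26, 16 differed there in the same direction and 5 were also at least 2-fold lower. Among the same 3987 genes, 83 were at least 2-fold higher and 63 at least 2-fold lower over those barcodes. With the mixed barcodes left out, 18 genes were at least 2-fold higher and 28 lower in members. The plot of gene levels in the 2 libraries shows the highest and lowest ratios among genes detected in at least 10% of the members of the higher library.

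**Figure D2:**
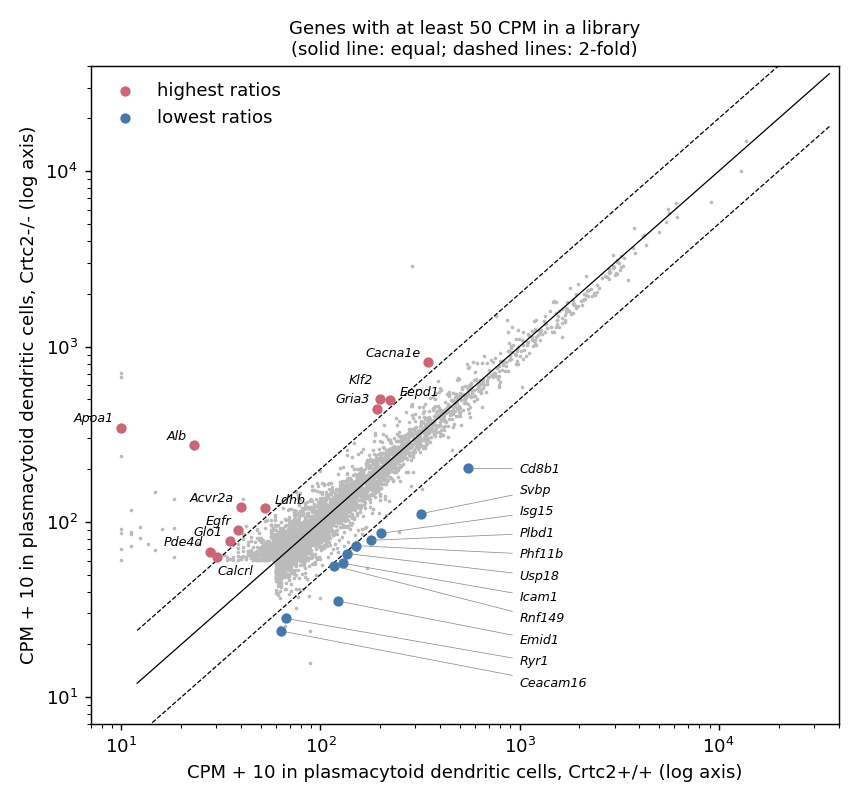
Each point is a gene with at least 50 CPM in a library, with its level plus 10 CPM in Crtc2+/+ members (x, log axis) and in Crtc2-/- members (y, log axis). Genes of the membership rule are not drawn. Most points follow the line of equal level, and the coloured ones are 12 of the highest and 11 of the lowest ratios among genes detected in at least 10% of members, of which Apoa1 and Alb each have most of their UMIs in 1 cell.

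The 2 largest ratios in Crtc2-/- members came mostly from single cells. Apoa1, a hepatocyte gene, had 0 UMIs in Crtc2+/+ and 1018 in Crtc2-/- members, 967 of them in 1 cell. Alb had 11 and 800 UMIs, 694 of them in 1 cell, and its log2 ratio without the mixed barcodes was 0.17. Both genes are left out of the descriptions that follow.

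Cacna1e, Gria3 and Eepd1 were among the highest ratios in the Crtc2-/- members. They were picked by ratio and do not stand for the genes typical of these cells. The 33 measured surface and accessory genes had a median log2 ratio of 0.06, and 0 of them passed 2-fold. Cacna1e, a voltage-gated calcium channel subunit, was at 337.5 CPM in Crtc2+/+ and 803.5 CPM in Crtc2-/-, a ratio of 2.38 (2.10 to 2.70). Gria3, a glutamate receptor subunit, was at 181 and 431 CPM, and Eepd1 at 215 and 486 CPM. No member held more than 58 of the 2443 Cacna1e UMIs in Crtc2-/-. After thinning each cell to 2000 UMIs, Cacna1e had a UMI in 40.9% (30.5 to 51.9%) and 64.8% (59.1 to 70.2%) of members, and Gria3 in 26.1% (17.3 to 36.6%) and 44.8% (39.1 to 50.7%). In T cells, where both should be missing, the thinned shares were at most 0.4% (Cacna1e 0.0% and Gria3 0.1% in Crtc2+/+), at a median depth of 4593 and 4687 UMIs. Cacna1e is not particular to these cells, since 24.1% and 29.6% of B cells had a UMI after thinning. Unthinned, Cacna1e had a UMI in 71.6% and 89.0% of members. All other kept barcodes had 8.64 and 39.1 CPM of Cacna1e.

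Klf2, a factor that holds lymphocytes quiescent and controls their trafficking, was at 190 (161 to 221) CPM in Crtc2+/+ and 494 (469 to 520) CPM in Crtc2-/- members. Its thinned share of cells was 22.7% (14.5 to 32.9%) and 41.5% (35.9 to 47.3%), below that of B cells (77.1% and 79.9%) in both libraries. The difference was shared with the rest of the libraries, where Klf2 stood at 260 and 602 CPM, and its log2 ratio was 0.90 in type 1 and 0.11 in type 2 conventional dendritic cells. Acvr2a, an activin receptor, was at 29.8 and 111 CPM, Ldhb, a lactate dehydrogenase subunit, at 42.9 and 110.2 CPM, Glo1, which detoxifies methylglyoxal, at 25.0 and 67.4 CPM (log2 ratio 1.14, and 0.9986 without the mixed barcodes), and Egfr at 28.6 and 79.3 CPM. Acvr2a and Ldhb had log2 ratios of 1.602 and 1.18 in members and of 0.25 and -0.39 in the other barcodes. Calcrl, a receptor component for adrenomedullin and CGRP, was at 20.3 and 53.0 CPM. Its log2 ratio of 1.06 was 0.79 without the mixed barcodes, passed 2-fold in 5 of 12 alternatives and was as low as 0.44, and endothelial markers in Crtc2-/- members summed to 439 CPM with the mixed barcodes and 247 without them.

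Among the lowest ratios, Cd8b1 stood out. It encodes a chain of the CD8 coreceptor, whose alpha chain is a known surface marker of part of the mouse plasmacytoid cells. Cd8b1 was at 543 (494 to 595) CPM in Crtc2+/+ members and 192 (177 to 208) CPM in Crtc2-/- members, a ratio of 0.354 (0.313 to 0.401). Cd8a was at 137 and 94.1 CPM. Thinned, Cd8b1 had a UMI in 47.7% (37.0 to 58.6%) and 26.9% (21.98 to 32.3%) of members. The thinned shares were 0.2% and 0.4% in B cells and 36.7% and 42.0% in T cells. In the other kept barcodes Cd8b1 was at 49.0 and 82.9 CPM. The 8 T cell markers had 29 and 128 UMIs in members, and their part in the Cd8b1 levels was not tested.

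Emid1, Ryr1 and Ceacam16 had low levels outside these cells. Emid1 was at 112 and 25.3 CPM, Ryr1, the calcium release channel of muscle, at 57.2 and 18.1 CPM, and Ceacam16 at 53.7 and 13.8 CPM. All 3 were below 13 CPM over the other kept barcodes of either library. Emid1 had a UMI in 52 of 88 and 61 of 301 members. Svbp, which binds the tubulin-modifying vasohibins, was at 310 and 101 CPM, and it was also lower in the other barcodes (101 and 48.4 CPM). Icam1, an adhesion molecule induced by inflammation, was at 119 and 48.0 CPM, Rnf149 at 107 and 46.05 CPM and Plbd1 at 169 and 68.4 CPM. The log2 ratio of Plbd1 was -0.94 without the mixed barcodes.

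The factors that define the lineage were as high or higher in Crtc2-/- members for Tcf4, Runx2, Bcl11a and Spib. Of 23 measured factors, 12 had a ratio above 1 and 11 below, and the median log2 ratio was 0.09. Mef2c was at 908 and 1278 CPM, Bcl11a at 873 and 1038, Zeb2 at 1166 and 1397, Spib at 142 and 169, and Irf8 at 2794 and 2771 CPM. Id2, which opposes this lineage in favour of conventional dendritic cells, was at 77.5 and 46.05 CPM, and without the mixed barcodes its log2 ratio was 0.19. Id3, a related inhibitor, was at 31.0 and 74.99 CPM (log2 ratio 1.05, and 0.70 without the mixed barcodes). Id3 was the only one of the 23 past 2-fold.

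Of 33 surface and accessory genes, 22 were higher and 11 lower in Crtc2-/- members, and 0 passed 2-fold. Bst2, the interferon-induced tetherin used to sort these cells, was at 2929 and 3316 CPM. St8sia4, a polysialyltransferase, was at 853 and 1413 CPM, Cd209d, a C-type lectin, at 126 and 248 CPM, and Klra17 at 190 and 281. Lag3, an inhibitory receptor carried by part of the mouse plasmacytoid cells, was at 97.8 (77.8 to 121) and 126 (114 to 139) CPM. On the lower side, Ly6d, a marker of lymphoid-primed cells, was at 3513 and 2390 CPM and the immunoglobulin light chain gene Iglc3 at 780 and 576 CPM. Reads of Iglc3 and its near-identical neighbours cannot be assigned with certainty. The genes that set the members apart most from the other barcodes, by a ranking within each library, were Grm8, Cd300c, Pdzd4, Smim5 and Mctp2, and their log2 ratios between genotypes lay between -0.16 and 0.29.

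The machinery that senses nucleic acids was present and close between genotypes. Of 33 measured genes, 23 were higher and 10 lower in Crtc2-/-, 0 passed 2-fold, and the median log2 ratio was 0.12. Tlr7 was at 105 and 113 CPM, Unc93b1, which escorts these receptors to endosomes, at 922 and 1006, Slc15a4, a transporter needed for their signalling, at 101 and 119, and Myd88 at 31.0 and 38.5 CPM. Chuk, a kinase of the NF-kappaB pathway, was at 46.5 (33.1 to 63.6) and 85.8 (75.7 to 96.9) CPM. Irf7 was the largest difference downward among the genes above 100 CPM, at 260 (227 to 297) and 183 (168 to 199) CPM. The share of members with a UMI of Irf7 was not lower in Crtc2-/-, at 26.1% (17.3 to 36.6%) and 32.6% (27.3 to 38.2%) after thinning and 61.4% and 67.4% before it.

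Interferon transcripts themselves were hardly detected. Over the 20 type I and type III interferon genes listed, the members had 1 UMI in Crtc2+/+, of Ifnb1, and 1 UMI in Crtc2-/-, of Ifnk. The other kept barcodes had 109 and 12 UMIs of these genes.

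Genes induced by type I interferon stood lower in the Crtc2-/- members, though the difference was modest. Of 40 measured response genes, 34 had a ratio below 1, the median log2 ratio was -0.34, and 5 of the 40 passed 2-fold lower, set against 0.56% of all genes. Leaving out the mixed barcodes gave a median of -0.36 over these 40 genes, and admitting barcodes with 1 Siglech UMI gave -0.87 for the list. Isg15, a ubiquitin-like protein made early in the response, was at 191 (162 to 223) CPM in Crtc2+/+ and 76.0 (66.5 to 86.4) CPM in Crtc2-/- members. Usp18, which removes ISG15 and dampens the interferon receptor, was at 126 and 55.9 CPM (log2 ratio -1.05, and -0.77 when cells with a UMI of Cd79a, Ms4a1, Lyz2 or S100a8 were left out), and Phf11b at 141 and 63.1 CPM. Phf11d, its paralog, had 14 and 10 UMIs. Ifit3 had 22 and 11 UMIs, 17 of the 22 in 1 cell, and its log2 ratio was -0.35 without the mixed barcodes. Oasl2, of the oligoadenylate synthetase-like family, was at 83.5 and 47.7 CPM, and Ifi27l2a at 541 and 432 CPM. Of the genes for interferon signalling, Stat2 was at 149 and 154 CPM and Ifnar1 at 185 and 215 CPM. Irf9 was higher in Crtc2-/- members, at 53.7 and 76.0 CPM, and its log2 ratio of 0.43 was the highest of the 40.

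Lower levels of these genes were also found in other cells. These 40 genes had a median log2 ratio of -0.78 over all other kept barcodes. Over the genes of the list that had 20 UMIs in each class, the median was -0.41 in type 1 conventional dendritic cells (48 genes), -0.26 in type 2 cells (48 genes) and -0.01 in B cells (47 genes). Isg15 had log2 ratios of -1.22 in members, -1.21 and -1.07 in the conventional cells, and 0.41 in B cells. These differences between cell types were not tested. The other barcodes also differ in their mix of cell types between libraries. Free RNA from lysed cells can add UMIs to members: hepatocyte markers in members without the mixed barcodes were at 8.48% and 4.78% of their level over all kept barcodes. Subtracting that share of each library's profile gave a median of -0.19 for the interferon response list.

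**Figure D3:**
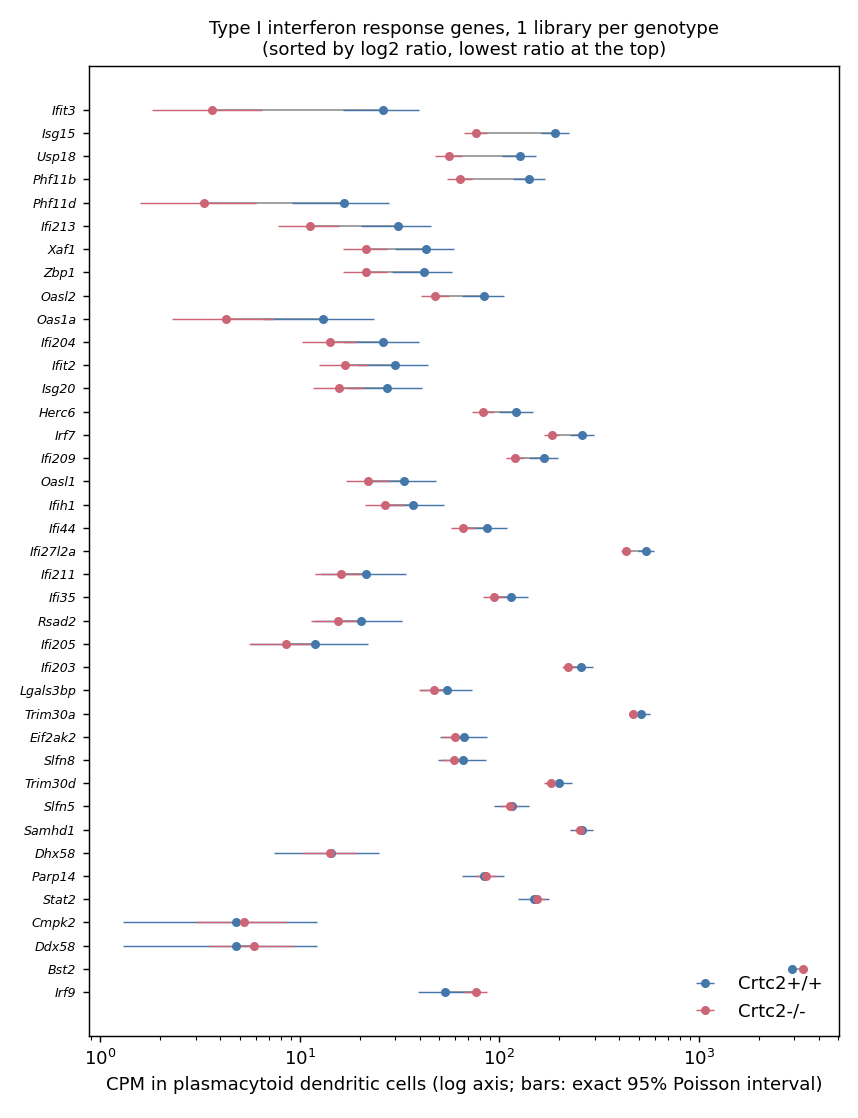
Points give the CPM (log axis) of 39 of the 40 measured type I interferon response genes in the members of each library, 1 library per genotype, with exact 95% Poisson intervals. Crtc2-/- points lie to the left of Crtc2+/+ points for 33 genes, with wide gaps at Ifit3, Phf11d and Isg15. They lie to the right for 6 genes, among them Bst2 and Irf9. Ifit3 and Phf11d rest on few UMIs, and each stayed past 2-fold in 7 of 12 alternatives.

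Single cells showed that the level of this response was uneven within each genotype. With every member thinned to 2000 UMIs, the summed UMIs of 49 response genes, Bst2 left out, had quartiles of 3 and 11 and a median of 4 in Crtc2+/+, and quartiles of 3 and 9 and a median of 5 in Crtc2-/-. Means were 8.75 and 6.79 UMIs. At least 10 UMIs were found in 25 of 88 members, or 28.4% (19.3 to 39.0%), and in 59 of 301, or 19.6% (15.3 to 24.5%). At least 5 UMIs were found in 46.6% (35.9 to 57.5%) and 60.1% (54.4 to 65.7%). The lower mean of the Crtc2-/- members thus came with fewer cells at the top and more in the middle, and the intervals of both shares overlapped between genotypes.

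Ccl4 varied most from cell to cell. It encodes a chemokine that attracts T cells and other leukocytes, and activated plasmacytoid cells are known to make it. Its level was 753 (695 to 814) CPM in Crtc2+/+ and 1488 (1445 to 1532) CPM in Crtc2-/- members. A UMI was found in 32 of 88 and 156 of 301 cells, and after thinning in 20.5% (12.6 to 30.4%) and 29.9% (24.8 to 35.4%), against 4.1% and 4.9% of B cells and 17.7% and 36.5% of T cells. The highest cell held 128 of 631 UMIs in Crtc2+/+ and 370 of 4525 in Crtc2-/-. The 10 highest cells held 583 UMIs (92.4%) in Crtc2+/+ and 2065 (45.6%) in Crtc2-/-. They were 10 of 88 members in Crtc2+/+ but 10 of 301 in Crtc2-/-, so these percentages do not compare concentration between genotypes. The thinned shares of Ccl4 had intervals that overlapped, and the intervals of its CPM do not cover this spread between cells. With the mixed barcodes left out, its variance over thinned cells was 18.4 and 24.4 times its mean, where the median gene had 1.06 in both libraries. Ccl3, its neighbour on chromosome 11, was at 39.4 and 70.7 CPM, and Ccl5 at 23.9 and 47.4 CPM. Cxcl10 had 66 UMIs in Crtc2+/+, 61 of them in 1 cell, and Xcl1 had 41, of which 34 were in 1 cell, so their low values in Crtc2-/- describe single cells.

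**Figure D4:**
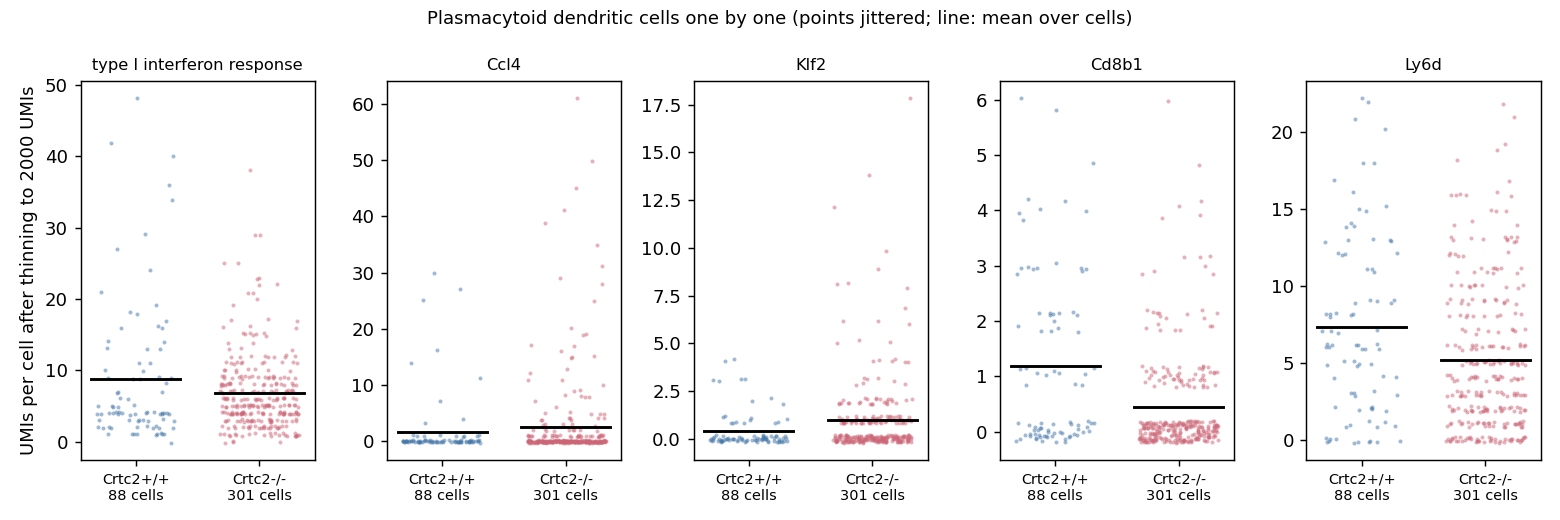
Each point is a member cell thinned to 2000 UMIs, and its height is the UMIs of the 49 summed interferon response genes or of Ccl4, Klf2, Cd8b1 or Ly6d, with 88 Crtc2+/+ and 301 Crtc2-/- cells and a line at the mean. Means were 8.75 and 6.79 for the interferon genes, 1.66 and 2.57 for Ccl4, 0.420 and 0.980 for Klf2, 1.19 and 0.442 for Cd8b1, and 7.31 and 5.15 for Ly6d.

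Antigen presentation differed little. Of 14 measured genes of the MHC class II pathway, 11 were lower in Crtc2-/-, 0 passed 2-fold, and the median log2 ratio was -0.19. The invariant chain Cd74 was at 6154 and 5466 CPM, H2-Aa at 2816 and 2429, and H2-Eb1 at 1485 and 1196, while H2-DMb1, a peptide-loading chain, was at 242 and 281 CPM. After free RNA was subtracted the median was 0.03. In all other kept barcodes, where macrophages are fewer in the Crtc2-/- library, the median was -0.78. Of 19 measured genes induced by interferon gamma, 12 were lower, with a median of -0.15. Irf1 was at 138 and 177 CPM, and Psmb9, an immunoproteasome subunit, at 365 and 300.6 CPM. Cxcl9 had 2 and 65 UMIs, 41 of the 65 in 1 cell.

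The secretory apparatus differed little. Of 32 measured genes of the secretory pathway and the unfolded protein response, 20 were higher and 12 lower, 0 passed 2-fold, and the median log2 ratio was 0.05. Xbp1, which expands the endoplasmic reticulum, was at 260 and 290 CPM, its activator Ern1 at 135 (111 to 162) and 198 (182 to 214) CPM, and the chaperone Hspa5 at 484 and 415 CPM.

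Genes that respond to cyclic AMP, the pathway in which CRTC2 acts, lay on both sides of equality. Of 25 measured, 11 were higher and 14 lower in Crtc2-/-, and the median log2 ratio was -0.08. The classic targets Sik1 (258 and 256 CPM), Fos (211 and 194), Nr4a1 (60.8 and 69.7) and Crem (28.6 and 41.4) had intervals that overlapped. Of the phosphodiesterases, which degrade cyclic AMP, Pde4b was at 51.3 (37.1 to 69.1) and 114 (103 to 127) CPM and Pde4d at 17.9 (10.0 to 29.5) and 57.6 (49.3 to 66.7) CPM. Pde4b had a log2 ratio of 1.02, which was 0.10 when barcodes with 1 Siglech UMI were admitted and 0.47 when cells with a UMI of Cd79a, Ms4a1, Lyz2 or S100a8 were left out. Pde4b and Pde4d were also higher over the other barcodes, with log2 ratios of 0.66 and 0.96. Pde4a was at 50.1 and 41.8 CPM, and Pde3b had 19 and 41 UMIs. Rgs1, a brake on chemokine receptor signalling, was at 162 (136 to 192) and 44.4 (37.2 to 52.6) CPM, and Rgs2 at 111 and 61.2 CPM. The share of members with a UMI of Rgs1 differed less, with intervals that overlapped. It was 13.6% (7.25 to 22.6%) and 9.63% (6.55 to 13.5%) after thinning and 28.4% and 23.3% before it. All 33 Nr4a2 UMIs of the Crtc2+/+ members came from 1 cell. The exact cyclic AMP element TGACGTCA, read on both strands, occurred in 2 of 25 promoters listed for 17 of these genes and in 1.79% of all promoters.

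Genes tied to tolerance and killing showed no common direction. Of 13 measured, 9 were higher and 4 lower, and the median log2 ratio was 0.08, or -0.04 without the mixed barcodes. None of the 13 passed 2-fold, and the highest log2 ratio was 0.62. On the lower side, Havcr2, which encodes the inhibitory receptor TIM-3, was at 47.7 (34.1 to 65.0) and 19.4 (14.8 to 25.0) CPM. Also lower were the ATP-degrading enzyme Entpd1, at 89.4 and 51.0 CPM, and the TIM-3 ligand Lgals9, at 94.2 and 60.5 CPM. Levels of the 9 higher genes are not given in this paragraph. Gzmb, a granule protease that human plasmacytoid cells make, had 0 and 7 UMIs. Among cytokine receptors, Il7r, the receptor of a lymphoid growth factor, was at 275 and 447 CPM, Il21r at 151 and 80.9 CPM, and Flt3, the receptor that sustains dendritic cells, at 224 and 244 CPM. Of 23 measured trafficking receptors, integrins and their regulators, 11 were higher and 12 lower, with a median log2 ratio of -0.04. Klf2 was past 2-fold higher, and Icam1, Itgae and Ccr1 were past 2-fold lower, set against 1.76% and 0.56% of all genes. Of the 17 with at least 50 CPM in a library, 1 was past 2-fold higher and 1 lower. Itgae, the integrin chain CD103 and a marker of type 1 conventional dendritic cells, had 40 UMIs in Crtc2+/+, 23 of them in 1 cell, and 6 in Crtc2-/-, with a log2 ratio of -2.27, or -1.14 without the mixed barcodes. Ccr1, a chemokine receptor, had 23 and 22 UMIs and stayed past 2-fold in 9 of 12 alternatives. Ccr2 was at 203 and 242 CPM and Cxcr3 at 71.6 and 79.6 CPM.

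The plot of list medians sets these groups beside conventional dendritic cells, B cells and all other barcodes.

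**Figure D5:**
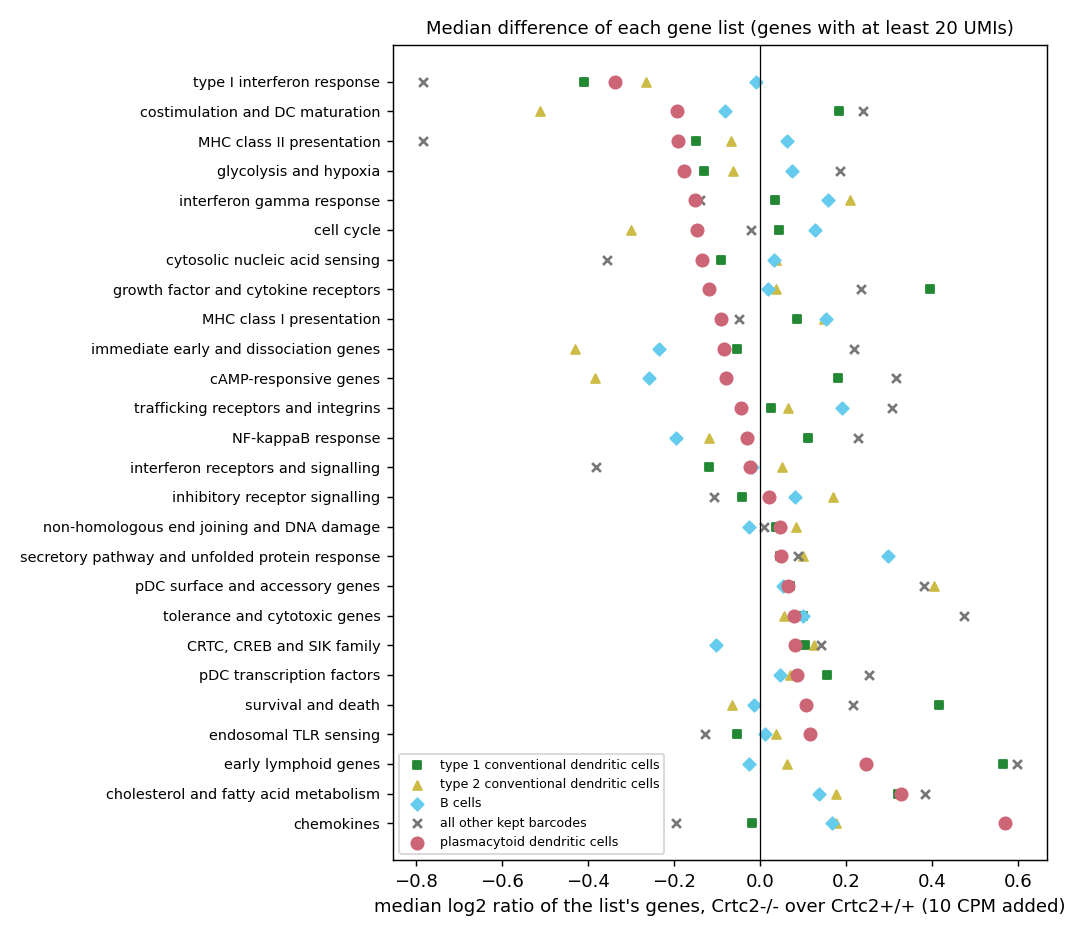
Each row is a gene list, and each symbol is the median log2 ratio of Crtc2-/- over Crtc2+/+ (10 CPM added) over its genes with at least 20 UMIs in that cell class, with 1 library per genotype. In plasmacytoid dendritic cells the lists run from -0.34 for the type I interferon response to 0.57 for chemokines, which has 9 measured genes and a median of 0.33 without the mixed barcodes.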

How the data were processed

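The 2 libraries of dissociated liver tumours were made with 10x Genomics 3′ chemistry, 1 per genotype. Per the file headers the authors counted with Cell Ranger 7.1.0; the submitters' processing notes also name Seurat and the build mm10. The deposited values are raw UMI counts per barcode for 32285 features, and no filter of the authors beyond cell calling is given in the sources used here. Barcodes under 500 UMIs or 250 genes, or over 20% mitochondrial UMIs, were dropped, which left 9612 of 9707 and 9174 of 9242. Doublets were not removed in the values reported. Members' counts were summed per library and expressed as CPM with exact Poisson intervals; ratios have exact conditional intervals, shares Clopper-Pearson intervals (95%). Without replicates no test between genotypes was run. Members and gene lists were chosen with earlier results of these data known. Named were the 12 highest and 12 lowest ratios among genes reaching 50 CPM that were detected in 10% or more of the members of the higher library, at 0.5 or more of the level of its other barcodes (rule genes, mitochondrial, ribosomal, haemoglobin, antigen receptor, sex-linked and predicted genes left out), the 25 genes most enriched in members, and, from each list with at least 20 UMIs, the largest ratios and core members. Some genes that this rule names are not reported here. Both libraries carry Y-linked transcripts. Gene positions come from GENCODE M21 (GRCm38) and promoters from RefSeq. Scripts used Python 3.11.15, numpy 2.4.6, scipy 1.17.1 and scanpy 1.11.5 (Scrublet), and were tested on simulated counts.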

Additional observations from a re-analysis of the deposited data

How the results depend on the processing

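With 1 library per genotype, differences between animals, tumours and preparations cannot be told apart from genotype, and no library could be left out. No paired analysis was possible because each genotype has 1 library. The higher share held under all 13 alternatives, with log2 ratios from 1.04 to 1.90 around 1.84; the value 1.04, outside the counting interval, came from leaving out of the denominator barcodes over 9 C1q UMIs. Allowing 1 Siglech UMI gave 67 genes at least 2-fold lower in place of 26, a type I interferon response median of -0.87 and an MHC class II median of -0.51; the Crtc2 ratio was then 0.445. At least 2-fold higher were 22 genes by the mean of per-cell CPM and 18 without mixed barcodes (an alternative added after seeing the data), in place of 41. A minimum of 100 CPM left 18 genes higher and 15 lower, and no minimum gave 173 and 64. The MHC class II median was 0.031 after free RNA was subtracted and -0.076 when cells with a UMI of Cd79a, Ms4a1, Lyz2 or S100a8 were left out, which kept 58 and 181 members and gave a cAMP-responsive median of -0.51. Some chemokine and cytokine genes changed sign, and the cause was not tested: Cxcl9 had a log2 ratio of -0.58 with 1 Siglech UMI allowed and -0.087 without mixed barcodes, Cxcl10 0.055 with at most 3 C1q UMIs, and Tnf 0.54 with the cells carrying those 4 genes left out. The type I interferon response median kept its sign in 13 of 13 alternatives, from -0.87 to -0.19. Cd8b1, Emid1, Svbp, Ryr1, Ceacam16, Isg15, Acvr2a, Ldhb and Pde4d stayed past 2-fold in all 12 run on them.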

Other observations

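Some gene groups not described above also had medians away from 0 between the members of the 2 libraries, each from 1 library per genotype. Genes of cholesterol and fatty acid synthesis were mostly higher in Crtc2-/- members, 14 of 19 measured, with a median log2 ratio of 0.33, or 0.15 without the mixed barcodes. Hmgcs1, an early enzyme of cholesterol synthesis, was at 28.6 (18.3 to 42.6) and 65.1 (56.4 to 74.9) CPM, Srebf2, the factor that controls the pathway, at 62.0 and 91.4 CPM, and Insig1, which holds it back, at 25.0 and 45.4 CPM. Fabp5, a fatty acid binding protein and the only one of the 19 past 2-fold, had 7 and 161 UMIs, and its log2 ratio was 0.66 without the mixed barcodes. The same list had a median of 0.38 over all other kept barcodes. Glycolysis genes were mostly lower, 13 of 18, with a median of -0.18, against 0.18 over the 20 list genes measured in the other barcodes. Gapdh was at 493 and 409 CPM, and Eno1 at 88.2 and 52.6 CPM.

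Early lymphoid genes, which mouse plasmacytoid dendritic cells share with B cell precursors, had a median log2 ratio of 0.25 over 10 genes. Over all other kept barcodes the median of these genes was higher, at 0.72. Dntt, the polymerase that adds bases at antigen receptor joints, was at 196 and 257 CPM in members and at 1.06 and 1.90 CPM elsewhere. Blnk, an adaptor of the B cell receptor, was at 388 and 574 CPM. Dntt had a UMI in 72.7% and 74.4% of members, and after thinning in 35.2% and 35.5%, against at most 0.2% of B cells and 0.1% of T cells.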
